A study of Mus musculus with 2 samples.

Results

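The replication-dependent histone genes of the mouse lie in clusters on chromosomes 13 (Hist1) and 3 (Hist2). Of the 33783 sWGA peaks, 69 (0.204%) had their summit in windows set for these clusters. Members were chosen by position alone, as peaks whose summit lay in 3 windows of the mm9 genome: chromosome 13 from 21.7 to 22.3 Mb, chromosome 13 from 23.5 to 24 Mb, and chromosome 3 from 96 to 96.12 Mb. The first Hist1 window held 27 peaks, the second 33 and the Hist2 window 9. The windows were set with the peak positions of this list known, so density and spacing within them are given as descriptions. The stretch of chromosome 13 between the Hist1 windows, from 22.3 to 23.5 Mb, served as a histone-free comparison and held 10 peaks. The rest of chromosome 13 held 1548 peaks and the rest of chromosome 3 held 2140.

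ZHBTc4 F-Oct4 is a line of mouse embryonic stem cells that expresses Oct4, a POU transcription factor of pluripotent cells, with a Flag tag. Cross-linked chromatin of this line was precipitated with anti-Flag antibody, and the eluate was then bound either to sWGA beads or to control beads. The lectin sWGA recognises N-acetylglucosamine, the sugar that O-GlcNAc transferase adds to nuclear proteins. The control beads appear in the labels in turn as an input, an IgG second step and agarose beads, which leaves its nature unresolved. Per the protocol both second steps started from the same kind of Flag eluate, and each was released with 0.5 M GlcNAc and sequenced as 1 library. The sWGA library kept 6129874 tags after the authors' filter and the control library 78351, so the sWGA library was 78.2 times deeper. With 1 library per group and 1 cell line, no value below has a replicate error and no test between the conditions was made. Because the chromatin was cross-linked, a peak alone does not tell whether the lectin held Oct4 or a protein beside it. Intervals cover counting error only, and they treat peaks as independent, which neighbouring peaks are not.

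Histones package DNA into nucleosomes: H2A, H2B, H3 and H4 form the core particle, and H1 binds the linker DNA between particles. The replication-dependent genes are short, lack introns, and are transcribed mainly in S phase, when new DNA has to be packaged. Embryonic stem cells cycle fast and spend much of the cycle in S phase. H2A and H2B genes are often arranged head to head, with a shared promoter between them. H2B promoters are known for an octamer element, the DNA word that POU factors such as Oct1 and Oct4 recognise.

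The peaks are in mm9, whereas the gene tables used here are RefSeq's for GRCm38.p6, so no peak is assigned to a gene and only gene names and gene order are taken from them. By that order the histone genes of chromosome 13 fall into 2 blocks. The first, from H2bc13 to H2bc11, lists 24 histone genes, of which 23 are protein-coding (1 H1, 7 H2A, 8 H2B, 2 H3 and 5 H4), together with 31 tRNA genes and the protein-coding genes Zfp184, Pom121l2 and Prss16. The second, from H4c8 to H2ac1, lists 32 histone genes, 31 of them protein-coding (5 H1, 6 H2A, 7 H2B, 7 H3 and 6 H4), with Hfe, Trim38 and 4 genes of the Slc17a family among them and 0 tRNA genes. Between the blocks stand 147 genes, of which 75 are vomeronasal type 1 receptor genes or pseudogenes (Vmn1r), expressed in sensory neurons of the vomeronasal organ, and 46 are tRNA genes. The chromosome 3 block runs from H2ac21 to H2bc18 with 10 protein-coding histone genes (4 H2A, 2 H2B, 3 H3 and 1 H4). The blocks and the mm9 windows need not end at the same genes. A peak in a histone window may therefore lie at a histone gene, at a tRNA gene or at neither.

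Promoter sequences are shown because the octamer is an element of H2B promoters that POU factors are known to bind. RefSeq promoters were matched for 59 of the 64 protein-coding histone genes, with 60 promoters in all, as H2bc6 has 2, of which 1 held the octamer. In the 250 bases before the start, the octamer ATTTGCAT was searched on both strands and was found in 7 of 16 H2B promoters (43.8%) and 6 of 17 H2A promoters (35.3%). It was found in 0 of 6 H1, 0 of 10 H3 and 0 of 11 H4 promoters. Of all 32851 mouse promoters of the same length 1.6% held it. Head-to-head H2A and H2B promoters overlap, so that the same octamer can be counted in both. The CCAAT box, searched as CCAAT on both strands, was found in all 16 H2B, all 17 H2A and all 6 H1 promoters, in 8 of 10 H3 and in 3 of 11 H4 promoters, against 33.8% of all promoters. No octamer overlapped a CCAAT box in the histone promoters. Below are the first H2B promoter with an octamer in each of the 3 blocks and, for contrast, the first H4 promoter, which held neither element. Each is the 250 bases before the start on the plus strand, with both elements in capitals. The positions are in GRCm38.p6 and are not comparable with the mm9 positions of the peaks: chr13:21721794-21722043 for H2bc14, chr13:23571150-23571399 for H2bc8, chr3:96269450-96269699 for H2bc18 and chr13:21734784-21735033 for H4c11.
H2bc14: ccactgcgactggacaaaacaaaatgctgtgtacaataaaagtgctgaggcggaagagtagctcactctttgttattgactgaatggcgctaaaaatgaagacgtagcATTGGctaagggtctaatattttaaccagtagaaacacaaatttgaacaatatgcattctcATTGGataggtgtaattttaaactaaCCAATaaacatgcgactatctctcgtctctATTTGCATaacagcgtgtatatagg
H2bc8: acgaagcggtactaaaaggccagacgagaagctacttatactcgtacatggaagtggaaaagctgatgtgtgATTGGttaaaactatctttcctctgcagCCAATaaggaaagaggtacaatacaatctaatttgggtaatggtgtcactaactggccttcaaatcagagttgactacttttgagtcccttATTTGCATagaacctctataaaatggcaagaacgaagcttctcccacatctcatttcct
H2bc18: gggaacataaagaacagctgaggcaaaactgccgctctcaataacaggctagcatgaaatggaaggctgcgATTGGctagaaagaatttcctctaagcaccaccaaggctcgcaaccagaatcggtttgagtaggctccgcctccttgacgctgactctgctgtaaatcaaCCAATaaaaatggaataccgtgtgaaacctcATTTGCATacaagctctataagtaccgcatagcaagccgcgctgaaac
H4c11: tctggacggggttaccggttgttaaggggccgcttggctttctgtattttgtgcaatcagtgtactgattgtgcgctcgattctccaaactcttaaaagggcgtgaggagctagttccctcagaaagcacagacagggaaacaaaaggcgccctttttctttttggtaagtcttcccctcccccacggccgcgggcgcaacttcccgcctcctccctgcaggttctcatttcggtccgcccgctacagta
The octamer began 25 bases before the start in H2bc14, 59 in H2bc8 and 48 in H2bc18. A match is a property of the sequence and says nothing of binding in these cells.

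On chromosome 13 the peaks crowded in the Hist1 windows and were sparser between them. Which of them lie at histone genes cannot be told without gene positions in mm9. The Hist1 windows together held 60 peaks in 1.1 Mb, or 54.5 per Mb (exact Poisson 95% interval 41.6 to 70.2). The gap held 8.33 per Mb (4.0 to 15.3) and the rest of chromosome 13 held 13.5 per Mb (12.8 to 14.2). The Hist1 windows were thus 6.55 times as dense as the gap (exact 95% interval 3.32 to 14.3) and 4.04 times as dense as the rest of the chromosome (3.07 to 5.23). The gap stood at 0.617 times the rest, with an interval (0.295 to 1.14) that includes 1. By length, peaks covered 2.77% of the Hist1 windows, 0.351% of the gap and 0.587% of the rest of the chromosome. When summits within 10 kb of each other were counted as 1 site, the Hist1 windows held 22 sites, the ratio to the gap was 3.0 (1.29 to 7.79) and the ratio to the rest of the chromosome was 1.87 (1.17 to 2.84). Joining close summits lowers the count most where peaks are dense, so part of this fall follows from the density itself. How much of it does was not tested.

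**Figure D1:**
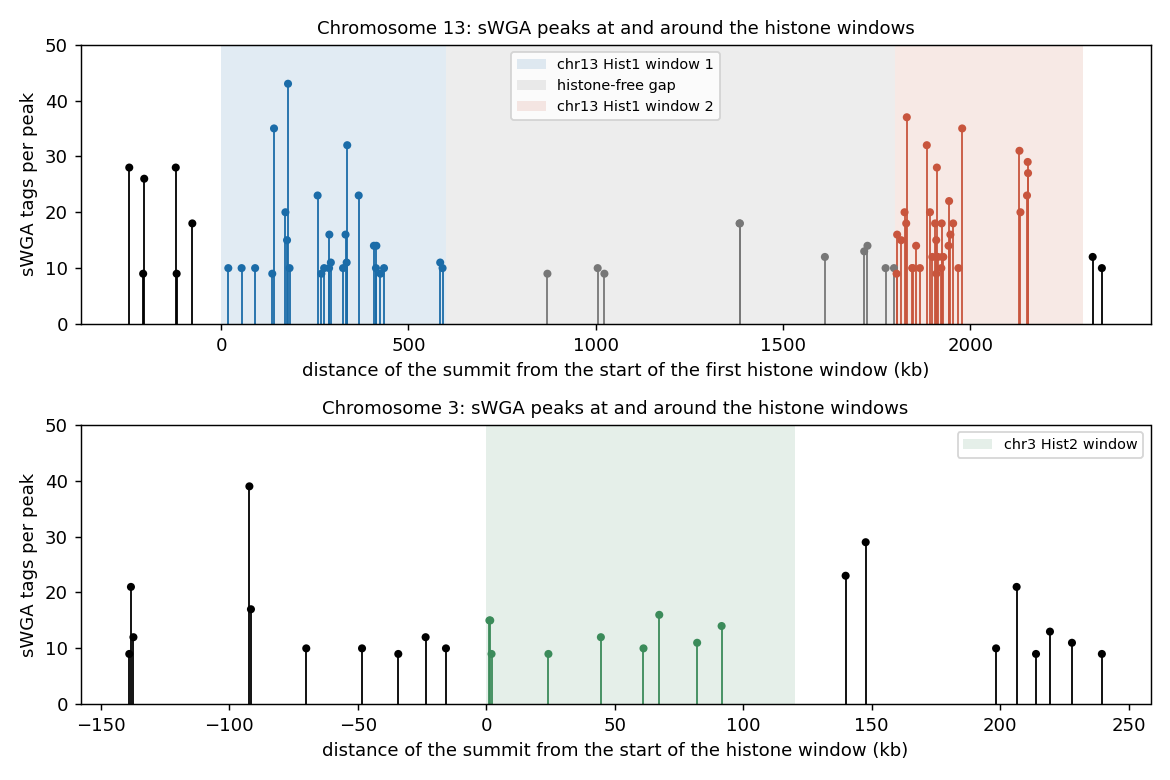
Each stem is 1 sWGA peak, placed by the distance of its summit from the start of the histone window (kb) and drawn to its number of tags. Colours mark the windows and black stems lie outside them. The gap holds 10 peaks, 4 of them in the 100 kb before the second window, against 27 and 33 in the Hist1 windows beside it. On chromosome 3 peaks continue on both sides of the window.

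The second Hist1 window carried the densest stretch. Divided into bins of 100 kb, it held 13 and 15 peaks from 23.5 to 23.7 Mb, 0 in the next bin, 5 from 23.8 Mb and 0 in the last. Of 24129 autosomal bins 2 held at least 15 peaks and 7 held at least 13, these bins of the window among them. At least 5 peaks were found in 4 of the 6 bins of the first Hist1 window and in 3 of the 5 bins of the second, whereas 4.55% of autosomal bins and 4.02% of the bins of chromosome 13 held as many. The first Hist1 window was more even, with 2 to 6 peaks in each bin. In the gap 7 of 12 bins were empty and the fullest, the last before the second Hist1 window, held 4. Over bins of 500 kb, the 33 peaks of the second window were equalled or exceeded in 3 of 4837 autosomal bins, the window among them, where the median bin held 6.

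**Figure D2:**
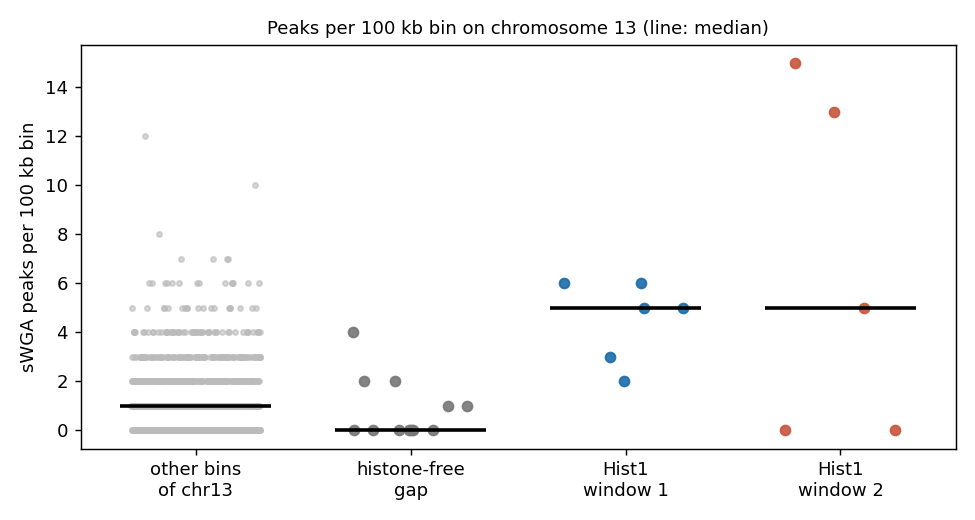
Each point is a 100 kb bin of chromosome 13, by its number of sWGA peaks (vertical axis), and the line is the median of the group. The median is 5 in both Hist1 windows, 0 in the gap and 1 in the 1147 other bins, of which the fullest holds 12.

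The windows have soft edges that do not all separate members from non-members. Before the first Hist1 window the nearest peak outside, 77.0 kb from its start, held 18 tags. The first peak inside, 19.1 kb from that start, held fewer, at 10. The last peak inside the first Hist1 window, 8.84 kb before its end, held 10 tags, and the next peak outside lay 271 kb beyond the end with 9 tags. At the start of the second Hist1 window a peak of 10 tags lay 3.56 kb outside and a peak of 9 tags 3.31 kb inside, so this edge cuts through a run of peaks. The last peak inside that window lay 146 kb before its end, with 27 tags, and the nearest one outside held 12. On chromosome 3 the nearest peaks outside held 10 tags, 15.6 kb before the window, and 23 tags, 19.9 kb after it.

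The Hist2 window lay in a wider dense stretch. Its 9 peaks in 0.12 Mb gave 75 per Mb (34.3 to 142), 5.48 times the rest of chromosome 3 (2.5 to 10.4). The 100 kb before it held 7 peaks, or 70 per Mb, and the 100 kb after it 6, or 60 per Mb. Over 200 kb the flanks held 10 and 8 peaks, or 50 and 40 per Mb. Widened by 50 kb at both ends the window kept 4.99 times the density of the rest (2.79 to 8.25). The raised density on chromosome 3 thus covered a wider stretch than the histone window. On chromosome 13 the 100 kb before the first window held 1 peak and the 100 kb after it 0. The 100 kb flanks of the second window held 4 and 2, or 40 and 20 per Mb, against 13.5 in the rest of chromosome 13. Over 200 kb they held 25 per Mb before the window and 10 after it. The raised density thus also ran past the start of that window, into the gap.

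Members lay close together, which follows at least in part from their density and is not a separate result. The median distance from a member to the nearest other summit was 3.45 kb, against 17.1 kb over the whole list, 13.4 kb in the gap and 17.4 kb in the rest of chromosome 13. Another summit lay within 5 kb for 41 of 69 members (59.4%, exact binomial interval 46.9 to 71.1), where 25.9% of all peaks had one. Within 1 kb the share was 18.8%, against 7.6% of all peaks. Within 5 kb the second Hist1 window had 24 of 33 peaks with a neighbour, the first 14 of 27 and the Hist2 window 3 of 9. Within 1 kb the order differed, with 3 of 9 in the Hist2 window, 8 of 33 in the second Hist1 window and 2 of 27 in the first, where the share of 7.41% was close to that of the list. The closest pair of members lay 0.323 kb apart at the start of the Hist2 window, where 3 peaks of 15, 15 and 9 tags filled 1.4 kb. Whether such a trio is 1 enriched stretch called as 3 peaks was not tested.

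Joined over distances of up to 10 kb, the members fell into 27 groups, of which 9 were single peaks. The group with the most members ran from 23583734 to 23628280 on chromosome 13, where 12 peaks with 198 tags filled 44.5 kb at a median spacing of 2.84 kb. In the whole list 3 of 26223 groups had as many peaks. The group was not uniformly strong: its members held 9 to 32 tags with a median of 13.5, and 5 of 12 held at least 18. The other groups of the Hist1 windows held at most 4 peaks each. In the second Hist1 window no summit was listed from 23678486 to 23831425, a stretch of 153 kb. In the first window the longest such stretch was 150 kb, from 22134821 to 22284838.

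Beyond their number, the peaks of the second Hist1 window also held more tags each. The median was 16 tags there (quartiles 12 and 22), 11 in the first Hist1 window (10 and 16), 12 in the Hist2 window (10 and 15), 11 in the gap, 11 in the rest of chromosome 13 and 11 over the whole list. At least 18 tags were held by 16 of 33 peaks of the second window (48.5%, 30.8 to 66.5), 6 of 27 of the first (22.2%, 8.62 to 42.3) and 0 of 9 of the Hist2 window (0 to 33.6%). The share over all peaks was 21.4%. Over all members it was 31.9% (21.2 to 44.2), but 16.7% (6.37 to 32.8) without the second window, which decides it. The interval over all members reaches down to the share of the list. That of the second window lies above it, but this is no test. Neighbouring peaks are not independent, 12 of these 33 stand in 1 group, and the window is the highest of the 3. Counted per Mb, peaks of at least 18 tags reached 32 in the second Hist1 window, 10 in the first, 1.67 in the gap and 2.78 in the rest of chromosome 13. For such peaks the second window was 3.2 times as dense as the first (1.19 to 9.98), whereas for all peaks the ratio was 1.47 (0.855 to 2.54).

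Weak peaks made up a correspondingly smaller share of the second Hist1 window. Peaks of 9 to 12 tags, the lowest the list holds, made up 11 of 33 there, 16 of 27 in the first window and 5 of 9 in the Hist2 window, against 62.3% of the whole list. A score of at least 100 was reached by 28 of 69 members (40.6%, 28.9 to 53.1), where 33.9% of all peaks reached it. By this measure the second window held 16 of 33, the first 9 of 27 and the Hist2 window 3 of 9, and the interval over all members includes the share of the list.

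Members reached at best the top 3.1% of the list by tags and the top 2.97% by fold. The highest values of the list were 289 tags and a fold of 328.68. The member with the most tags, at 21878266 to 21878779 in the first Hist1 window, held 43 tags and ranked 980 by tags in the whole list. Its fold over the caller's background was 22.27 and its score 295.38. It is the strongest of a group of 4 peaks over 11.5 kb, the others holding 10 to 20 tags. The member with the highest fold and score lay at the start of the group of 12, at 23583734 to 23584159, with 32 tags, a score of 327.41 and a fold of 51.17. It was compact, at 426 bp, and 26 of its 32 tags covered the summit. It was the one member with a fold over 30, and it ranked 889 by fold.

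Most of the other members among the 10 with the most tags were longer. The peak at 23529786 to 23530767 held 37 tags over 982 bp, with 16 at the summit and a fold of 13.19. The peak at 21840768 to 21841433 held 35 tags over 666 bp, with 22 at the summit, or 62.9%, close to the 62.8% of the member with 43 tags. The peak at 23677999 to 23678866 held 35 tags over 868 bp, with 18 at the summit. The peak at 22036392 to 22037285 held 32 tags over 894 bp with 11 at the summit, and the peak at 23830843 to 23831778 held 31 tags over 936 bp with 10 at the summit. The longest member, at 23610533 to 23611673, spread 28 tags over 1141 bp, with 12 at the summit. The last 2 were the final peaks of the second window and lay side by side. They ran from 23853011 to 23853807 with 29 tags and from 23854102 to 23854853 with 27, their summits 0.949 kb apart. Of these 10 peaks 3 lay in the first Hist1 window and 7 in the second. The strongest peak of the Hist2 window, at 96067022 to 96067502 on chromosome 3, held 16 tags at a fold of 23.62, and the strongest of the gap, at 23084605 to 23085075 on chromosome 13, held 18 tags at the same fold.

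Strong members had low summits for their number of tags. Summit heights in tags were recovered from the deposited folds, each a whole number of tags divided by a known expectation. Among the 22 members of at least 18 tags, the summit held a median of 50% of the tags of the peak (exact interval of the median 43.5 to 62.9), with a range of 32.3% to 81.2%. Over the whole list the median for such peaks was 65.2% (quartiles 51.7 and 77.8), and in the rest of chromosome 13 it was 61.9%. The interval for members leaves out the value of the list but holds that of the chromosome. As neighbouring peaks are not independent, this is no test. Of the 22 strong members 18 lay below the median of the list. The value was 50% in the second Hist1 window (16 peaks) and 55.3% in the first (6 peaks). At matched tag numbers of 18 to 29, the median member had 11 tags at its summit and was 607 bp long, where the list had 14 tags and 544 bp. This comparison was chosen after the values were seen.

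The weakest members did not show that shape. At 9 to 12 tags the median member was 391.5 bp long with 8 tags at the summit, and the median of the list was 389 bp with 8. At 13 to 17 tags members were 486 bp long with 9 tags at the summit, against 449 bp and 10 for the list. Over all members the median length was 446 bp (415 to 497), against 419 bp for the list and 417 bp for the rest of chromosome 13. Peaks of at least 600 bp made up 10 of 33 in the second Hist1 window, 3 of 27 in the first and 0 of 9 in the Hist2 window, where 11.1% of the list was as long.

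**Figure D3:**
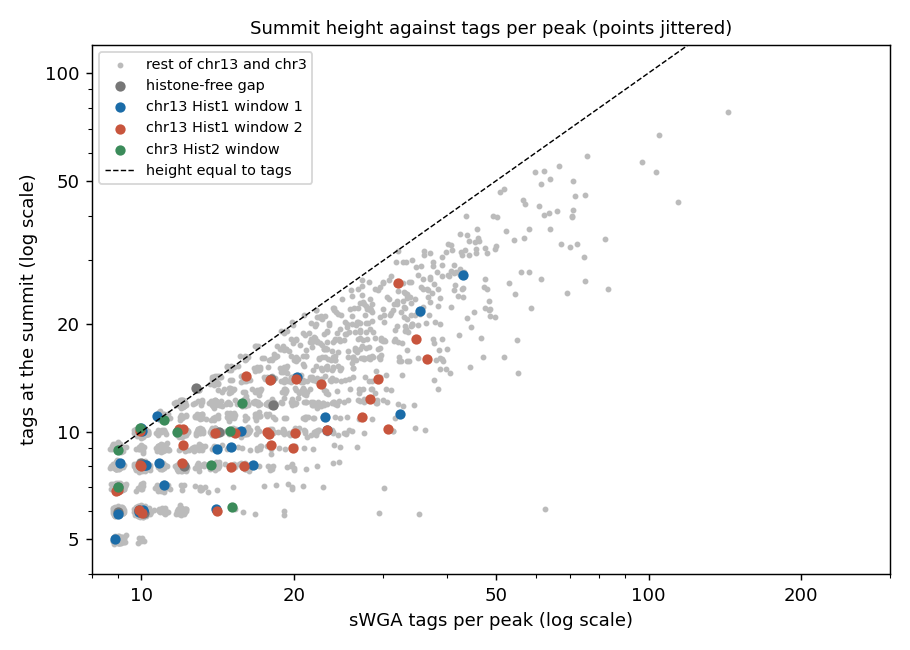
Tags at the summit (vertical, log scale) against all tags of the peak (horizontal, log scale) for peaks of chromosomes 13 and 3 whose summit height could be recovered; points are jittered slightly and the dashed line marks equal values. Strong members of the Hist1 windows lie mostly in the lower part of the cloud, with summits of 9 to 27 tags.

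Over all members the median fold was that of the list, although their tags were higher. Pooled over the windows, it was lower within each class of tags. The median fold of members was 15.75 (13.78 to 18.14), the same as that of the list, the gap and the rest of chromosome 13. It was 15.75 in both Hist1 windows and 19.68 in the Hist2 window, whose peaks all held 16 tags or fewer. By tags, the median fold of members was 14.77 at 9 to 12 tags, 15.75 at 13 to 17, 19.68 at 18 to 29 and 18.14 at 30 or more. The list had 15.75, 19.68, 25.59 and 43.3 in the same classes. At 9 to 12 tags only the first Hist1 window was lower, at 11.81, with 15.75 in the second and 19.68 in the Hist2 window. The fold depends on the background the caller used: 1 tag at the summit is worth a fold of 1.97 over the genome-wide expectation, but 0.825 where 1 control tag lies within 10 kb. Such a local background applied to 13 of 69 members (18.8%, 10.4 to 30.1), all in the Hist1 windows, where 8.79% of all peaks had a fold that was not a whole number of tags at the genome-wide expectation. The 13 had a median of 20 tags and a median fold of 8.25, and the other 56 had 12 tags and a fold of 16.73. With the genome-wide background alone, the 25 such peaks of the second Hist1 window had a median of 15 tags and a fold of 19.68, against 11 tags and 15.75 for the list. The 13 members with a local background lay in 7 groups of neighbouring peaks, and peaks of 1 group can share a control tag.

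Among the strongest members a nearby control tag was common. Of the 7 members of at least 30 tags, 5 had one (71.4%, 29 to 96.3), where 26.7% of such peaks in the list did (25 to 28.4). At 18 to 29 tags the shares were 20% (3 of 15) and 19.4%, and at 9 to 12 tags they were 9.38% (3 of 32) and 2.89%. In the Hist2 window 0 of 9 peaks had a local background, and in the gap 1 of 10 did. A control tag in 10 kb raises the number of tags a peak needs, so weak sites beside such tags may be missing from the list. Their number was not measured. Each of the 13 local backgrounds of members rests on 1 control tag, from a library of 78351. These shares are therefore no measure of a raised control signal in the windows. How often a 10 kb stretch holds a control tag wherever it lies was not measured.

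**Figure D4:**
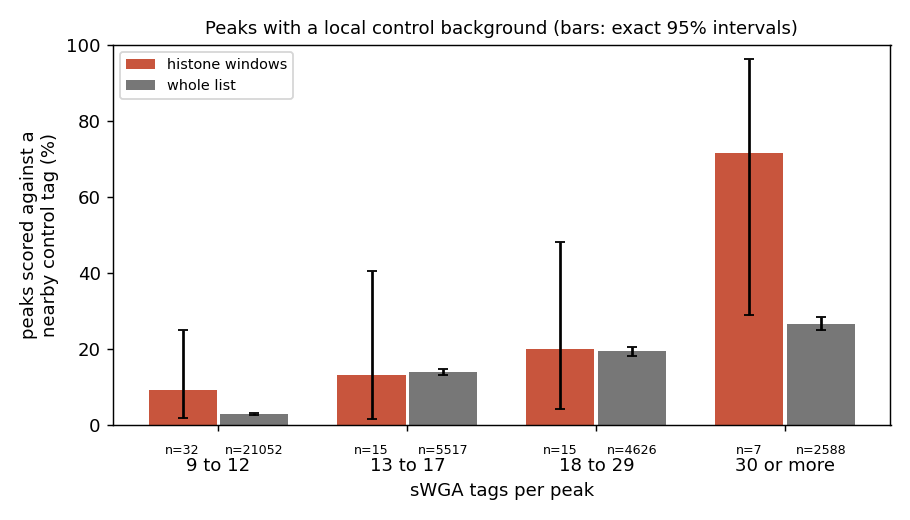
Share of peaks scored against a nearby control tag (percent, with exact 95% intervals), by tags per peak, for the histone windows and the whole list. The intervals of the histone windows are wide, with 7 to 32 peaks in a class, and at 30 tags or more the histone share is 71.4% against 26.7%.

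The control list held 0 of its 750 regions in the histone windows and 0 in the gap, which allows a share of up to 0.4% (3 counts of 750). The nearest control region to the second Hist1 window lay 347 kb away, at 24346983 to 24347144, with 3 tags. On chromosome 3 the nearest lay 871 kb away. Since the caller set the sWGA library as background for the control list, absence from the control list is no measure of the control signal there. Many histone genes are near-identical copies, as are vomeronasal receptor and tRNA genes. How reads with several matches were handled is not given in the sources used here, and the part of mappability in the counts of the windows or of the gap was not tested.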

How the data were processed

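The deposited lists were used, 1 per library. Per the file headers, the authors ran MACS 1.4.1 with a p cutoff of 1e-05 (a score of 50), took fragments as 155 bp and read the local background over 1 and 10 kb, with the smaller library scaled up. The build was mm9, as the submitters' processing notes say. The control list carries the name of the exchanged run. No source used here names the aligner. Tags are the authors' unscaled counts per region. As deposited, a score is the p-value's negative log10 times 10, a fold is the ratio of summit height to expected tags, and the FDR, a percent, was not used.

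Values were computed with Python 3.11.15, numpy 2.4.6, pandas 2.3.3 and scipy 1.17.1. A peak was placed by its summit. A fold within 0.01 tags of a whole number at the genome-wide expectation of 0.508 tags, or at the 1.21 tags set by 1 control tag in 10 kb, gave the background and the summit height. The rest of a chromosome was measured from its first to its last listed peak. Intervals are exact: Poisson for densities, Clopper-Pearson for shares and ratios, order statistics for medians. The steps were tested on simulated data. Named peaks were the 10 members with the most tags, the strongest of the gap and of the Hist2 window, and those beside each edge. Windows, members and lists were chosen with earlier results of these data known. Alternatives were other minimum scores and tags, window edges and distances, peak midpoints, and each window left out.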

Additional observations from a re-analysis of the deposited data

How the results depend on the processing

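No paired analysis was possible because only 1 sWGA and 1 control library exist in these files, so no replicate could be left out either. Of 47 alternative values 37 stayed within the interval of the main value. Counting peaks within 10 kb as 1 moved the density ratio of the Hist1 windows to 3.0 against the gap and to 1.87 against the rest of chromosome 13, as fewer units were counted in dense stretches. With at least 18 tags the ratio to the rest of chromosome 13 moved to 7.19. The ratio of the Hist2 window to the rest of chromosome 3 reversed to 0 with at least 18 tags, where 0 peaks were found and the density of the rest would give 0.306. A score of at least 100 moved the medians of members to 21 tags, 575 bp and a fold of 19.68, as weak peaks were removed. The share of members with at least 18 tags moved to 16.7% without the second Hist1 window. The share with a neighbour was 18.8% within 1 kb and 92.8% within 20 kb. Added after seeing the data, leaving out the group of 12 peaks gave ratios of 5.24 to the gap and 3.23 to the rest of chromosome 13. The summit share of strong members, 50%, ran from 48.28% to 55.31% over 5 alternatives added after seeing the data. At most 33 peaks in a window limit the precision of every share.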
